A study of Homo sapiens with 4 samples.

Results

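The genes described here are 59 zinc finger genes of human chromosome 19, 19 in a cluster at 19q13.31 and 40 in a cluster at distal 19q13.4. They were taken by symbol from the 53777 rows of the expression table that carry an Ensembl gene identifier. ZNF8 and ZNF223 each have 2 such rows, so the 59 genes have 61 rows, and all were found. The data are 4 RNA sequencing libraries of NUGC3 cells, a line from a human gastric cancer. A pair of libraries came from cells with a scramble control. The others came from cells with NIPBL knocked down by a short hairpin RNA, 1 library with hairpin 1 and 1 with hairpin 7. No age, dose or time is given, and the letters DOX and the word combined in every label are left unexplained by them. The second scramble library is labelled like the first with R1 added, which may mark a repeat rather than a separate culture. Nothing names separate cultures, and the knockdown libraries also differ in hairpin. The p-values thus measure how far these libraries lie apart. The spread they rest on can be technical variation, and within knockdown it also holds the hairpin difference. Each hairpin stands in 1 library, so hairpin and library cannot be told apart.

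Most genes of these clusters encode C2H2 zinc finger proteins with a KRAB domain. Such proteins bind DNA through a row of zinc fingers. Their KRAB domain recruits TRIM28, which brings in the methyltransferase SETDB1, heterochromatin protein 1 and deacetylases, and many of them silence transposable elements. The family grew by tandem duplication, so that neighbours on chromosome 19 are often close copies. NIPBL loads the cohesin ring onto chromosomes, and cohesin extrudes the loops that fold clusters of genes. The comparison asks how the transcripts of these neighbouring genes differ when NIPBL is lowered.

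NIPBL itself was at 23.92 and 23.11 FPKM in scramble 1 and 2, at 7.27 FPKM with hairpin 1 and at 9.17 FPKM with hairpin 7. FPKM relates reads to the length of the transcript and to the size of the library. The log2 change of NIPBL was -1.42 ± 0.14 (SE, limma, adjusted p = 0.0218). The FPKM of a library summed to 682076 at the lowest and 749446 at the highest, and its depth in reads is unknown. The epithelial markers EPCAM, CDH1, KRT8, KRT18 and KRT19 summed to between 5045 and 5101 FPKM under scramble and between 4077 and 5041 FPKM under knockdown. Within that sum KRT19 was at 155% and CDH1 at 124% of the scramble mean while KRT18 was at 73.9%, none of them passing the test. Of the 6 gastric markers, CLDN18, TFF2 and MUC5AC were at or below 0.10 FPKM in every library, while TFF1 was at 0 and 0.17 FPKM in scramble and at 2.48 and 1.02 FPKM with hairpins 1 and 7. MUC1 was at 1.70 and 0.95 FPKM in scramble and at 2.40 and 7.18 FPKM with hairpins 1 and 7 (limma, adjusted p = 0.187), and GATA6 was at 127% of scramble (limma, adjusted p = 0.178). The 5 fibroblast markers summed to 5.76 to 6.57 FPKM in scramble and 7.34 to 9.59 FPKM under knockdown, nearly all of it COL1A1, with COL1A2 and COL3A1 listed at 0. The 4 leukocyte markers stayed at or below 1.05 FPKM in sum with PTPRC at 0, and the 2 endothelial markers measured at or below 0.96 FPKM. The part of these marker levels in the results was not tested.

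Nearly all tested zinc finger genes of both clusters had a lower mean in the knockdown libraries, most by a small amount and a few by 2-fold or more, and 5 passed the test. Of the 61 rows, 44 averaged 1 FPKM or more across the libraries and were tested, 15 at 19q13.31 and 29 at distal 19q13.4. ZNF283, ZNF404 and ZNF45 of the 19q13.31 cluster and ZNF470 and ZNF530 of the distal cluster fell (limma on log2(FPKM + 1), adjusted p under 0.05), and no gene rose. That is 11.4% of the 44, where 1.11% of all 12834 genes tested passed as lower, 1.45% as higher and 2.56% in either direction. At an unadjusted p under 0.05 the counts were 15 lower and 0 higher, against 12.8% and 13.6% of all genes tested. The log2 change was below 0 for 43 of the 44, against 51.7% of all genes, and ZNF586 was the exception at 0.04. Both knockdown libraries lay below both scramble libraries for 35 of the 44 and above both for 0, against 30.8% and 29.5% of all genes tested. For the other 9 the groups overlapped. The members were chosen with earlier results of these data known, so these contrasts with all genes are not independent support.

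The size of the difference was modest for the typical gene. The median log2 change of the 44 was -0.30 (quartiles -0.54 and -0.21), beside -0.01 over all genes tested. In mean FPKM, 6 genes were at under 50% of their scramble level, 9 at 50% to 70%, 26 at 70% to 90% and 3 at 90% or more. Summed over the 61 rows, the level was 354.47 and 353.24 FPKM in scramble 1 and 2, 224.51 FPKM with hairpin 1 and 214.86 FPKM with hairpin 7, or 62.1% of scramble. ZNF283, ZNF404, ZNF45 and ZNF470 carried 32.9% and 33.1% of that sum in the scramble libraries but 16.7% with hairpin 1 and 19.1% with hairpin 7. Without these 4 genes the sum was at 76.1% of scramble. A lower level in a bulk library can come from fewer cells that express a gene or from less RNA per cell, which cannot be told apart. Protein-coding genes at the members' middle levels numbered 2069, with a mean between 3.02 and 7.68 FPKM (the members' own quartiles). They had a median log2 change of 0.04, and 45.3% were below 0. ZNF283, ZNF404, ZNF45 and ZNF470 lie above that range.

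**Figure D1:**
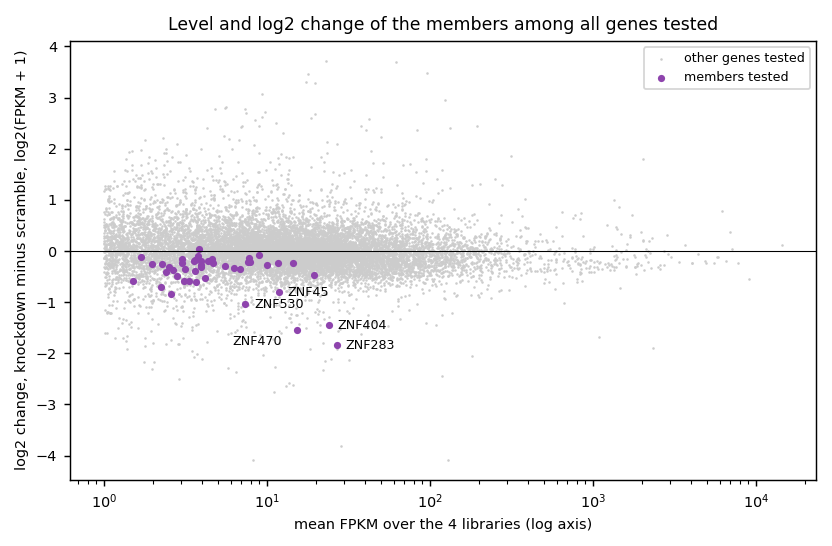
Mean FPKM over the 4 libraries (x axis, log) against the log2 change, knockdown minus scramble, of log2(FPKM + 1) (y axis) for the 12834 genes tested, with the 44 cluster genes in purple. All but ZNF586 lie below 0, and the 5 labelled genes are those that fell.

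At 19q13.31 the 3 genes that fell are the first 3 zinc finger genes of the cluster in chromosome order, and the first 2 had the highest scramble levels of all genes described here. ZNF283 (ENSG00000167637) was at 43.91 and 41.35 FPKM in scramble 1 and 2, 10.66 FPKM with hairpin 1 and 11.74 FPKM with hairpin 7. Its mean fell 3.81-fold, from 42.6 ± 1.81 to 11.2 ± 0.764 FPKM (SD, n = 2 each), and the log2 change was -1.84 ± 0.10 (SE, limma, adjusted p = 0.0101). Counted from the most negative change, it ranks 31 among the 12834 genes. ZNF404 (ENSG00000176222) was at 34.40 and 36.70 FPKM in scramble, 11.47 FPKM with hairpin 1 and 13.35 FPKM with hairpin 7. It fell 2.86-fold, and its log2 change was -1.45 ± 0.12 (SE, limma, adjusted p = 0.0173), rank 79. ZNF45 (ENSG00000124459) was at 15.10 and 15.53 FPKM in scramble, 8.01 FPKM with hairpin 1 and 8.63 FPKM with hairpin 7. It fell to 54.3% of scramble, and its log2 change was -0.81 ± 0.11 (SE, limma, adjusted p = 0.0409), rank 328. For each of the 3 genes the hairpins lay close together and far from the scramble libraries.

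The promoters of these 3 genes are shown because the genes passed the test. These promoters differ in make-up. Each run is 300 bases, 250 before and 50 from the annotated start, on the gene's own strand from RefSeq on GRCh38.p14. Capitals mark a match, on either strand, to the ETS factor motif CCGGAAG, to CCAAT, or to the ZNF143 core, which is ACTACA, 3 bases of any kind, then CCCAG.
ZNF283, chr19:43827071-43827370, plus strand: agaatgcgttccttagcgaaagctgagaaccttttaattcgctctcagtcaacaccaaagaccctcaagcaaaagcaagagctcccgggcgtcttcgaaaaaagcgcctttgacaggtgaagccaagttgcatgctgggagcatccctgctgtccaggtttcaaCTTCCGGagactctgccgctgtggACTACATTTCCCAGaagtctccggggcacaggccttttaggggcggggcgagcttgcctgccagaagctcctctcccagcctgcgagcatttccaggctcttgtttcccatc
ZNF404, chr19:43883915-43884214, minus strand: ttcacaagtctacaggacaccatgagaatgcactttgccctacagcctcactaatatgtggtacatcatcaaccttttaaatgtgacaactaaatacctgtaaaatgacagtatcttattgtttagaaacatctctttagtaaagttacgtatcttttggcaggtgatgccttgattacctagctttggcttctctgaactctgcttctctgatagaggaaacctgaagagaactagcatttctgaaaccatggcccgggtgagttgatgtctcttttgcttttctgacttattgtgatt
ZNF45, chr19:43935233-43935532, minus strand: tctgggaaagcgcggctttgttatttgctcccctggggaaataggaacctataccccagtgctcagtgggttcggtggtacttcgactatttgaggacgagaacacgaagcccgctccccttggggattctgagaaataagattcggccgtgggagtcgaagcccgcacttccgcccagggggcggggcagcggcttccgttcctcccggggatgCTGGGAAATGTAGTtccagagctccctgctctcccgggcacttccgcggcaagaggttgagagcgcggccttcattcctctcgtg
ZNF283 holds an ETS match at bases 165 to 171 of its window and a ZNF143 core at bases 189 to 202. ZNF45 holds the ZNF143 core on the other strand at bases 216 to 229. ZNF404 holds none of the motifs searched. Its window has 2 CG dinucleotides and 39% G or C, where that of ZNF45 has 22 and 60% and that of ZNF283 has 13 and 55%.

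The other 12 members tested at 19q13.31 had a median log2 change of -0.24. None of them passed, and 4 (33.3%) had an unadjusted p under 0.05, all lower, against 12.8% of all genes tested (limma). All 12 were below 0, against 51.7% of all genes tested. ZNF230 was at 3.16 and 2.85 FPKM in scramble, 1.85 FPKM with hairpin 1 and 1.10 FPKM with hairpin 7 (log2 change -0.71 ± 0.22, SE, limma, adjusted p = 0.136). ZNF221 was at 4.72 and 4.49 FPKM in scramble, 3.33 FPKM with hairpin 1 and 2.11 FPKM with hairpin 7 (-0.61 ± 0.21, limma, adjusted p = 0.157). In each of them both knockdown libraries were lower than either scramble library. ZNF226, among the 3 highest members of its cluster in scramble with ZNF283 and ZNF404, was at 14.44 and 17.15 FPKM in scramble, 14.18 FPKM with hairpin 1 and 12.19 FPKM with hairpin 7. Its groups lay close together without overlapping, and the log2 change was -0.24 ± 0.14 (SE, limma, adjusted p = 0.324). ZNF224, known as a repressor of the aldolase A gene, was at 13.25 and 12.34 FPKM in scramble, 10.56 FPKM with hairpin 1 and 10.75 FPKM with hairpin 7 (-0.24 ± 0.11, limma, adjusted p = 0.224). ZNF284 was at 50.1%, ZNF225 at 66.0% and ZNF180, at the far end of the cluster, at 75.4% of the scramble mean. ZNF222, ZNF227, ZNF234, ZNF235 and ZNF155 were at 82.5% to 89.8%, and for ZNF155, ZNF234 and ZNF235 the groups overlapped. The summed level of the cluster was 165.41 and 167.3 FPKM in scramble, 90.14 FPKM with hairpin 1 and 89.35 FPKM with hairpin 7, or 53.9% of scramble.

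**Figure D2:**
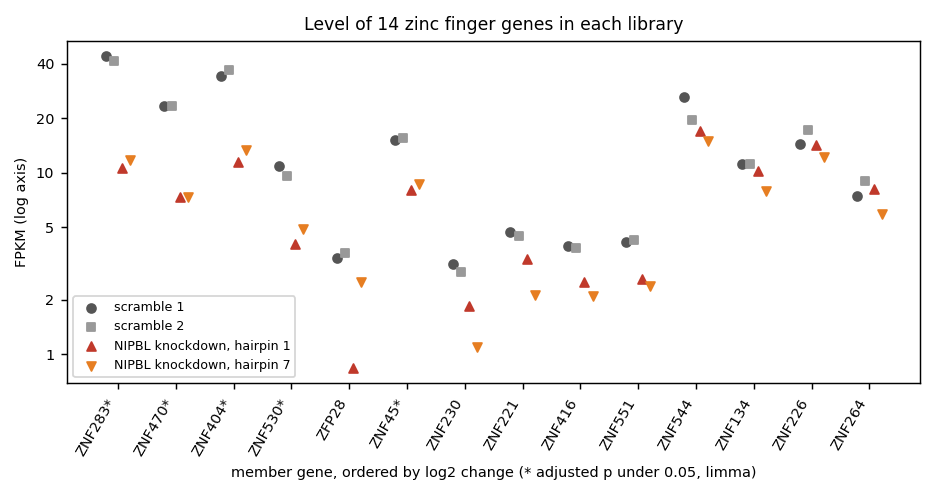
FPKM (log axis) of 14 zinc finger genes in each of the 4 libraries, ordered by log2 change. Points are single libraries, and an asterisk marks an adjusted p under 0.05 (limma). For the 5 marked genes both knockdown libraries lie well below both scramble libraries, while for ZNF264 the groups overlap.

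In the distal cluster ZNF470 and ZNF530 fell. ZNF470 (ENSG00000197016) was at 23.36 and 23.43 FPKM in scramble 1 and 2, 7.37 FPKM with hairpin 1 and 7.33 FPKM with hairpin 7. Within each group the libraries were nearly equal, and the mean fell to 31.4% of scramble (log2 change -1.55 ± 0.10, SE, limma, adjusted p = 0.0112), rank 65 from the most negative. ZNF530 (ENSG00000183647) was at 10.89 and 9.55 FPKM in scramble, 4.04 FPKM with hairpin 1 and 4.93 FPKM with hairpin 7. It fell to 43.9% of scramble (log2 change -1.03 ± 0.15, SE, limma, adjusted p = 0.0449), rank 188. ZNF470 stands near the start of the distal cluster and ZNF530 in its middle, with genes between them that did not pass.

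Their promoters are shown because the genes passed the test, with that of ZNF586, the gene above 0. All 3 hold a ZNF143 core and an ETS match.
ZNF470, chr19:56567218-56567517, plus strand: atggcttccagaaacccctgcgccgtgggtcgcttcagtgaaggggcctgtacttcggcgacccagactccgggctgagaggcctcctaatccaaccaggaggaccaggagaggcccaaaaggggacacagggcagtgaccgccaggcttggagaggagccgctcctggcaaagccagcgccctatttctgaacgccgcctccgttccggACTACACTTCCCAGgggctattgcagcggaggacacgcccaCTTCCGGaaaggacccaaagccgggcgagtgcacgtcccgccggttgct
ZNF530, chr19:57599635-57599934, plus strand: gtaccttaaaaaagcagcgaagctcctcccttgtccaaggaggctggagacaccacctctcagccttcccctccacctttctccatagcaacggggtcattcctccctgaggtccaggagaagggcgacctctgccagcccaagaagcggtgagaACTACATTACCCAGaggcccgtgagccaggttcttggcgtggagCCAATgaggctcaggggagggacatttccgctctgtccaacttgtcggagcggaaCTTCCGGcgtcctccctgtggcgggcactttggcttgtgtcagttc
ZNF586, chr19:57769426-57769725, plus strand: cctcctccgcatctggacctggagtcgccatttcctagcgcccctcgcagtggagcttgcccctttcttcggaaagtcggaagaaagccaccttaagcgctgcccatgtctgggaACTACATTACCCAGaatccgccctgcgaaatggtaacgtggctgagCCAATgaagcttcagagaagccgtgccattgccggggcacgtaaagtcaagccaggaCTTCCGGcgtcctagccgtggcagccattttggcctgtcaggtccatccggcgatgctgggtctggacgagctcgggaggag
The letters of the ZNF143 core are ACTACATTACCCAG in ZNF530 and in ZNF586 alike, at bases 156 to 169 and 116 to 129. In both it is followed by CCAAT and then by the ETS match. ZNF470 has ACTACACTTCCCAG at bases 211 to 224 and an ETS match at bases 252 to 258. ZNF586 was at 3.90 and 3.64 FPKM in scramble, 3.97 FPKM with hairpin 1 and 3.86 FPKM with hairpin 7 (log2 change 0.04 ± 0.14, SE, limma, adjusted p = 0.867). The same core letters stood before ZNF530, which fell, and before ZNF586, whose groups overlapped. Whether these motifs have a part in the changes was not tested.

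The other 27 members tested in the distal cluster did not pass (limma). Of them 6 had an unadjusted p under 0.05 (limma), all lower, where 12.8% of all genes tested were lower at that threshold. ZFP28, next to ZNF470 in gene order, was at 3.41 and 3.63 FPKM in scramble, 0.84 FPKM with hairpin 1 and 2.50 FPKM with hairpin 7. Both knockdown values were below scramble but far apart (log2 change -0.83 ± 0.34, SE, limma, adjusted p = 0.203). ZNF416 was at 3.97 and 3.86 FPKM in scramble, 2.50 FPKM with hairpin 1 and 2.08 FPKM with hairpin 7 (-0.58 ± 0.16, limma, adjusted p = 0.111). ZNF551 was at 4.17 and 4.24 FPKM in scramble, 2.60 FPKM with hairpin 1 and 2.38 FPKM with hairpin 7 (-0.58 ± 0.14, limma, adjusted p = 0.0982). In these the knockdown libraries lay together and below both scramble libraries. ZNF256 was at 63.3%, the upper row of ZNF8 at 63.1%, ZNF460 at 69.8% and ZNF552 at 71.1% of the scramble mean.

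ZNF544 and ZNF134 are, with ZNF470, the highest of the distal cluster by their mean over the 4 libraries. ZNF544 was at 26.30 and 19.60 FPKM in scramble, 17.09 FPKM with hairpin 1 and 15.06 FPKM with hairpin 7 (log2 change -0.48 ± 0.17, SE, limma, adjusted p = 0.167). The scramble libraries differed more for it than the hairpins did. ZNF134 was at 11.20 and 11.12 FPKM in scramble, 10.20 FPKM with hairpin 1 and 7.93 FPKM with hairpin 7 (-0.28 ± 0.15, limma, adjusted p = 0.291). ZNF304, known from work on gene silencing in colorectal cancer, was at 76.8% and ZNF211 at 76.3% of scramble. ZNF71, ZNF805, ZNF543, ZNF548, ZNF17, ZNF749, ZNF549, ZNF550 and ZNF776 were at 73.5% to 85.1%, each with both knockdown libraries below both scramble libraries. ZNF417 and ZNF587, near copies that are known to bind retroviral repeats, were at 81.6% and 95.3%. The groups overlapped for ZNF264, ZNF419, ZNF773, ZNF606, ZNF586 and ZNF587. ZNF264 was at 7.43 and 9.05 FPKM in scramble, 8.16 FPKM with hairpin 1 and 5.95 FPKM with hairpin 7 (-0.21 ± 0.19, limma, adjusted p = 0.518). The distal cluster summed to 189.06 and 185.94 FPKM in scramble, 134.37 FPKM with hairpin 1 and 125.51 FPKM with hairpin 7, or 69.3% of scramble.

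The remaining 17 rows were below 1 FPKM on average and were not tested. They belong to 16 genes, of which 15 had no tested row and ZNF8 had another that was tested. The highest value among them was 1.39 FPKM, for ZNF471 in scramble 1. Both knockdown libraries were below both scramble libraries in 8 of the 17, above both in 2 and overlapping in 7. Of all 12396 rows under 1 FPKM with a value above 0 in some library, 11.9% lay below and 15.5% above, and 16 of the 17 rows belong to that set. ZNF471, ZNF582, ZNF671 and ZNF154, genes known to be methylated in several carcinomas, were among the 8. ZNF471 was at 1.39 and 1.19 FPKM in scramble, 0.33 FPKM with hairpin 1 and 0.96 FPKM with hairpin 7. ZNF671 was at 0.83 and 0.66 FPKM in scramble, 0.34 FPKM with hairpin 1 and 0.41 FPKM with hairpin 7. ZNF582, ZNF583 and ZNF154 stayed at or below 0.35 FPKM in scramble and 0.13 FPKM under knockdown. ZNF274, known to bring SETDB1 to zinc finger genes, was at 0.61 and 0.66 FPKM in scramble, 0.23 FPKM with hairpin 1 and 0.32 FPKM with hairpin 7, and ZNF547 and the lower row of ZNF8 complete the 8. ZNF418 and ZNF329 were higher with both hairpins, at no more than 0.30 FPKM. ZNF233 overlapped, at 0.68 and 0.75 FPKM in scramble, 0.86 FPKM with hairpin 1 and 0.75 FPKM with hairpin 7. ZNF229 was listed at 0 in every library, and ZNF285, ZNF223 and ZNF135 never exceeded 0.12 FPKM. At such levels a difference of a fraction of an FPKM cannot be read without the depth.

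Set side by side, the hairpins gave similar medians over the 44 genes, -0.32 for hairpin 1 and -0.36 for hairpin 7 on the log2 scale, against the same scramble libraries. Scramble 2 minus scramble 1 had a median of 0.02. The level was lower with hairpin 7 than with hairpin 1 for 29 of the 44. The median size of the difference between hairpins was 0.16 and that between scramble libraries 0.09. ZFP28 differed most, at -1.30 with hairpin 1 and -0.37 with hairpin 7. ZNF221 (-0.37 and -0.85), ZNF230 (-0.49 and -0.93) and ZNF264 (-0.01 and -0.41) had the more negative change with hairpin 7. The genes that fell did so by like amounts, from -1.90 and -1.78 for ZNF283 to -0.86 and -0.76 for ZNF45. Both hairpins share the scramble libraries, so the closeness of their changes is not independent support.

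The 5 calls, like those of all other genes tested, rest on having both scramble libraries. With scramble 1 or scramble 2 left out, calls were lost over all genes tested. The loss is thus not particular to these 5 members. Their log2 changes stayed between -0.79 and -1.88. With the library of hairpin 1 left out 11 members passed, among them ZNF221, ZNF230, ZNF416, ZNF551 and ZNF134, and with that of hairpin 7 left out 6 passed, ZFP28 among them. All of these were lower. In the same fits many more of all genes tested passed, 35.3% without hairpin 1 (19.6% lower) and 22.7% without hairpin 7 (11.6% lower). The members' 25% and 13.6% are thus below the share of all genes in either direction and near the share of lower ones, so these counts add nothing about the members. A lone library is assumed in these fits to vary like the other group.

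Zinc finger genes outside these clusters were lower as well. Of 403 other genes tested whose symbols start ZNF or ZFP, 22 fell and 0 rose (limma). At an unadjusted p under 0.05, 88 of the 403 (21.8%) were lower and 15 higher, where 12.8% and 13.6% of all genes tested were. Their median log2 change was -0.14. The 95 others on 19q, which include ZNF112, ZNF772, ZNF814 and ZNF587B inside the clusters, had a median of -0.30. That is the same to 2 decimals as the median of the genes described here, and 16 of the 95 (16.8%) fell. Of the 71 on 19p, 3 (4.23%) fell, and the median was -0.22. Of the 237 on other chromosomes, 3 (1.27%) fell, and the median was -0.07. The difference between these groups was not tested. A log2 change below 0 was found for 83.2% of the other genes on 19q, and 57.9% of them had both knockdown libraries below both scramble libraries.

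**Figure D3:**
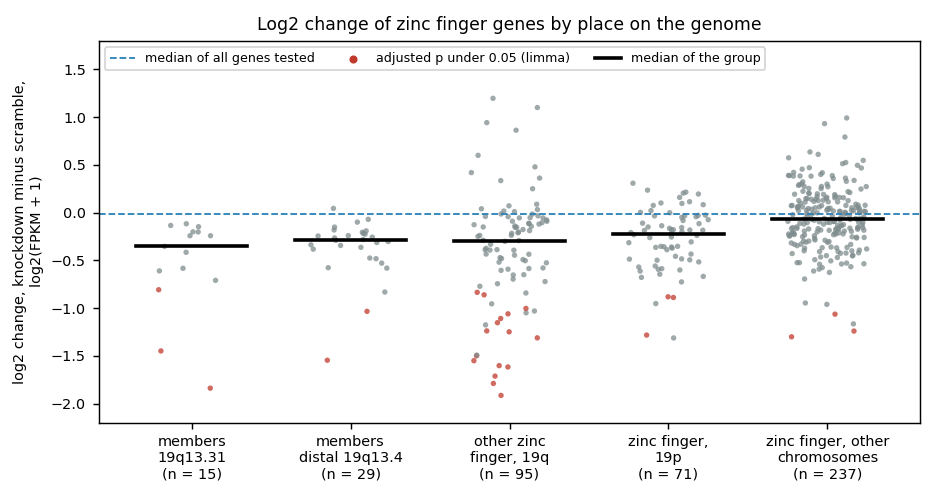
Log2 change, knockdown minus scramble and computed from log2(FPKM + 1), of single zinc finger genes by place on the genome, with black bars at the medians, red points for an adjusted p under 0.05 (limma) and a dashed line at the median of all genes tested. The medians are -0.35, -0.29, -0.30, -0.22 and -0.07 from left to right.

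The genes next to the clusters were chosen for description after values were seen. Before ZNF283 in gene order stand LYPD5, which encodes an LY6 family surface protein, and KCNN4, a calcium-activated potassium channel. LYPD5 was at 197.95 and 206.27 FPKM in scramble, 30.11 FPKM with hairpin 1 and 43.39 FPKM with hairpin 7 (log2 change -2.45, limma, adjusted p = 0.0161). KCNN4 was at 102.93 and 104.21 FPKM in scramble, 53.74 FPKM with hairpin 1 and 39.72 FPKM with hairpin 7 (-1.15, limma, adjusted p = 0.0445). Among the tested genes that RefSeq placed by symbol, KCNN4, LYPD5, ZNF283, ZNF404 and ZNF45 are thus 5 neighbours in a row that fell. Tested genes without a place could lie between them. Farther out, SMG9 (-0.12), PLAUR (-0.43) and CADM4 (-0.35) did not pass. On the other side, past ZNF180, the genes PVR, CEACAM19, BCL3, CBLC and BCAM did not pass, with log2 changes from -1.15 for BCAM (adjusted p = 0.0648) to 0.32 for CEACAM19. None of the 5 genes tested on either side of the distal cluster passed. Inside the clusters, 34 further genes with a RefSeq place have a row and 5 were tested. These were ZNF112 (0.02), ZNF772 (-0.09), ZNF814 (-0.45), ZNF587B (-0.29) and TRAPPC2P1 (0.18). Of them 0 passed, 0 at an unadjusted p under 0.05 either (limma).

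**Figure D4:**
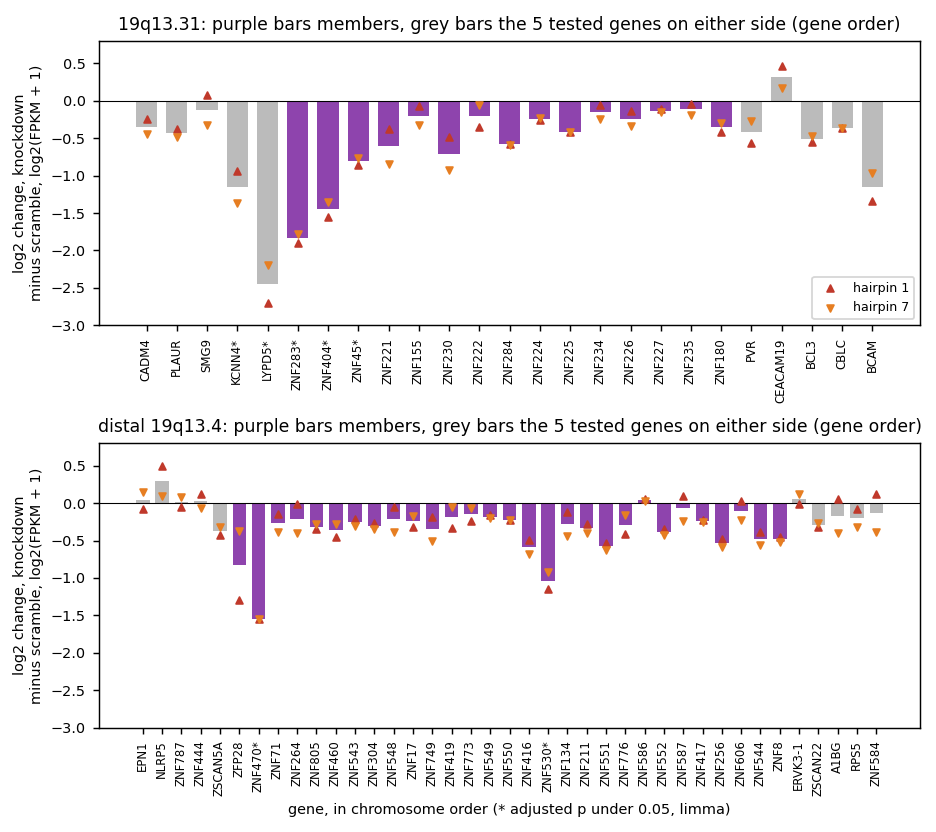
Log2 change in chromosome order for the 19q13.31 cluster (top) and the distal cluster (bottom), purple for members tested and grey for the 5 tested genes on either side. Triangles give hairpin 1 and hairpin 7, each against the scramble mean, and an asterisk marks an adjusted p under 0.05 (limma). Among the genes placed by symbol, KCNN4, LYPD5, ZNF283, ZNF404 and ZNF45 stand side by side toward the start of the upper row. ZNF470 and ZNF530 are apart in the lower one.

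The transcripts of the 59 genes were compared for what the selection did not use, with GENCODE 29 sequences. The share of a gene's 50-base words found in another gene had a median of 7.55% and reached 43.9% for ZNF284, 43.7% for ZNF223 and 40.5% for ZNF155. In all, 8 genes were above 20%, so their split of reads is uncertain, ZNF224, ZNF417, ZNF587, ZNF135 and ZNF8 being the other 5. For the genes that fell the share was 0% for ZNF45, 0.0395% for ZNF530, 1.05% for ZNF470, 2.83% for ZNF283 and 16.2% for ZNF404, all of it shared with the single gene AC006213.2. The longest open reading frames held 5 C2H2 finger motifs in ZNF274 to 18 at most, with a median of 13. ZNF283 had 15, ZNF404 14, ZNF45 15, ZNF470 17 and ZNF530 13, so the genes that fell stood within the range of the rest.

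Promoter windows were found for 50 of the 59 genes. The ETS motif CCGGAAG, on either strand, stood in 29 (58%) of them, in 37.1% of 391 other zinc finger genes and in 14.2% of 15843 protein-coding genes. The ZNF143 core, searched after these promoters had been seen, stood in 20 (40%), in 9.72% of the other zinc finger genes and in 1.98% of protein-coding genes. It was in 4 of the 5 genes that fell and in 15 of 33 (45.5%) of those tested that did not pass. Since the core was picked after promoters had been seen, this contrast tests nothing. The median log2 change was -0.34 for the 19 tested genes with the core and -0.27 for the 19 without. CCAAT stood in 26 (52%), in 47.6% of the other zinc finger genes and in 36.4% of protein-coding genes. In the 168 other zinc finger genes on chromosome 19, CCAAT stood in 53.0%, the ETS motif in 41.1% and the ZNF143 core in 13.1%. The E-box CACGTG, a site of MYC-type factors, stood in 2 (4%), in 5.37% of the other zinc finger genes and in 8.88% of protein-coding genes. The AP-1 motif TGANTCA stood in 4, TATAAA in 1 and the CTCF core (CC, 3 bases of any kind, AGGGGGC) in 1. The motifs do not overlap each other in the windows printed here. A match describes these letters and shows no binding.

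A list of 32 genes was taken, holding co-repressors through which KRAB proteins act and other chromatin genes. Among the latter are CTCF and the histone demethylase genes KDM4A, KDM4B and KDM4C. Of these 32 genes 0 passed (limma), where 2.56% of all genes tested did. At an unadjusted p under 0.05 (limma), 7 (21.9%) were lower and 2 higher, against 12.8% and 13.6% of all genes tested. The median log2 change of the 32 was -0.13. TRIM28, the co-repressor that binds the KRAB domain, was at 177.20 and 178.64 FPKM in scramble, 145.24 FPKM with hairpin 1 and 124.26 FPKM with hairpin 7 (log2 change -0.40 ± 0.11, SE, limma, adjusted p = 0.117). Its partner SETDB1 had a log2 change of -0.33 (adjusted p = 0.129, limma). The smallest p values were those of the histone demethylase genes KDM4B (0.70, adjusted p = 0.0671) and KDM4C (0.45, adjusted p = 0.108), the DNA methyltransferase gene DNMT1 (-0.45, adjusted p = 0.0695) and the histone methyltransferase gene SUV39H1 (-0.61, adjusted p = 0.0739), all from limma.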

How the data were processed

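RNA sequencing values of 4 NUGC3 libraries, 2 scramble and 2 NIPBL knockdown, were used. The authors deposited FPKM per gene. Per the submitters' processing notes, STAR and RSEM were used, with no version named, and the genome build, annotation and strand setting were not given in the sources used here. RSEM divides reads that fit several genes, so values of close copies are uncertain, and antisense overlap cannot be told apart. Depth is unknown, so no counting intervals are given.

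From these values, log2(FPKM + 1) was fitted with limma 3.58.1 in R 4.3.3 (lmFit, eBayes with a mean trend) for the 12834 genes averaging 1 FPKM or more, knockdown minus scramble, two-sided, with Benjamini-Hochberg adjustment over all of them and a threshold of 0.05. The scale understates changes of low genes. The fit was tested on simulated data. Members were given in full if they passed, were, within their own cluster, among the 5 with the largest non-overlapping change per direction or the 3 highest by mean FPKM, or were among the 4 of both clusters with the widest hairpin difference. The members and lists were chosen with earlier results of these data known. Gene order came from RefSeq on GRCh38.p14, which placed all 59 genes and was used for names and order only, since the build of the files is not named. By symbol it placed 59.1% of all Ensembl rows, and the rest are missing from the gene order. Transcripts were from GENCODE 29. Promoters of 9 genes and all protein sequences were not analysed here. Alternatives were another pseudocount, filter, scaling or variance trend, and leaving out each library.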

Additional observations from a re-analysis of the deposited data

Results flagged for a closer look

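ZNF587 drew attention because its hairpins lay on opposite sides of the scramble libraries. It was at 9.63 and 8.69 FPKM in scramble, 9.86 FPKM with hairpin 1 and 7.60 FPKM with hairpin 7. Hairpin 7 minus hairpin 1 was -0.337 on the log2(FPKM + 1) scale. With 1 library per hairpin the difference was not tested. ZNF587 shares 35.5% of its 50-base words with other genes, so its split of reads is uncertain.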

How the results depend on the processing

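The median log2 change of the members was negative under all 12 alternatives. It was -0.297 as reported, -0.371 with a pseudocount of 0.1 FPKM, -0.348 with quantile normalization, and from -0.356 to -0.294 with 1 library left out. The number of members that passed was 5, and all that passed under any alternative were lower. It was 0 with no filter on low values, where 25230 genes share the adjustment, 3 with values rescaled to a common sum per library or without the mean trend (ZNF283, ZNF404 and ZNF470 in both), and 0 to 11 with 1 library left out. With the scramble libraries averaged into 1, an alternative chosen after seeing the data, 0 passed. At an unadjusted p under 0.05 (limma) there were 16 of 60 member rows without the filter, all lower. In that fit 4275 of 25230 genes were under it in either direction. Over all genes, 328 passed, 1 without the filter, 205 after rescaling, 0 with the averaged scramble and 0 to 4532 with 1 library left out, the count being 4532 without the library of hairpin 1 and 2915 without that of hairpin 7. Unadjusted p values under 0.05 (limma) numbered 975 over all genes with the averaged scramble, and 1060 and 1052 without scramble 1 or 2. The cause was not tested. For the 14 members given in full, 137 of 168 values under alternatives kept direction and side of the threshold, 25 no longer passed, 6 newly passed and 0 changed sign. The median of all genes stayed between -0.026 and 0.032. No paired analysis was possible because no replicate number links a scramble to a knockdown library. Unknown depth limits what can be read for the 17 rows under the filter.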
